A study of Mus musculus with 8 samples.

Results

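The genes described here are 10 mRNAs of hepatic gluconeogenesis and of the insulin response that governs it, namely G6pc1, Pck1, Fbp1, Pcx, Ppargc1a, Foxo1, Irs1, Irs2, Igfbp1 and Tat. They were chosen by name, and every probe set annotated to 1 of them by a current or an older symbol was taken (G6pc1 is listed under its older name, G6pc). This gave 23 of the 45101 probe sets and 10 of the 18193 genes on the array. All 10 genes had values in all 8 livers.

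The experimental animals were 4 txnrd1 cond/- albCre1 mice (animals 69, 72, 73 and 81), in which an albumin promoter drives Cre recombinase in hepatocytes and removes the conditional allele of txnrd1, the gene for cytosolic thioredoxin reductase. Their other allele is null in every cell type, so the hepatocytes are txnrd1-/- while other liver cells keep 1 conditional allele. The control animals were 4 txnrd1 cond/+ albCre0 mice (animals 70, 71, 80 and 82), which carry 1 conditional and 1 wild-type allele and no Cre transgene. All 8 were young males that had spent 10 days without cage mates, and the livers were collected at 1 time of day, in the afternoon. Exact ages, and when each mouse last ate, are not stated in the sources used here. RNA of whole liver was hybridized to 1 Affymetrix array per animal. In such RNA, fewer cells of a type and less mRNA per cell cannot be told apart.

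The values are linear ratios, in which 1 is about the median liver for that probe set. Signal levels are not kept in them, so levels cannot be compared between genes, and hepatocyte identity cannot be checked from them. The median ratio of each array lay between 0.997 and 0.999. Of the 3 probe sets for Txnrd1, 1 was higher in txnrd1 cond/- albCre1 livers (1.101 to 2.002, against 0.41 to 0.9 in txnrd1 cond/+ albCre0 livers) and the others were lower (log2 differences of -0.71 and -0.41). None passed the adjusted threshold in limma (adjusted p = 1.00 each). The unadjusted p-values in limma were 0.0015, 0.0042 and 0.010, in that order. The sources used here do not place the 3 probe sets inside or outside the deleted exons, so the probe sets do not check the genotypes. By other assays the study reported conversion of the allele and a large fall of functional Txnrd1 mRNA and protein in livers of this genotype. Among the 10 lists of cell type markers, 0 genes passed the adjusted threshold. The markers of pancreatic acinar cells (3 of 5 measured) averaged a log2 ratio of 3.16 in txnrd1 cond/+ albCre0 animal 71, against -0.53 to 0.09 in the other livers.

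Gluconeogenesis is the synthesis of glucose from lactate, glycerol and amino acids, and liver is its main site during a fast. Pyruvate carboxylase (Pcx), phosphoenolpyruvate carboxykinase (Pck1), fructose-1,6-bisphosphatase (Fbp1) and the catalytic subunit of glucose-6-phosphatase (G6pc1) replace the glycolytic steps that cannot run backwards. In a fast, glucagon and glucocorticoids raise transcription of several of these genes, with the coactivator PGC-1α (Ppargc1a) taking part. After a meal, insulin acts through its receptor substrates (Irs1 and Irs2) and the kinase Akt to move the transcription factor FoxO1 out of the nucleus, which lowers transcription of G6pc1, Pck1, Irs2 and Igfbp1.

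Letters of 4 promoters are shown for genes whose transcription insulin lowers. In 3 of them the insulin response core was found. In that of Pck1 it was not found within the 250 bases searched, and sequence farther upstream was not searched. Each stretch is the 250 bases before the start of the gene in RefSeq on GRCm38.p6, on the strand of the gene. G6pc1 lies at chr11:101367466-101367715 on the plus strand, Irs2 at chr8:11008930-11009179 on the minus strand, Igfbp1 at chr11:7197537-7197786 on the plus strand and Pck1 at chr2:173152823-173153072 on the plus strand. Capitals mark the insulin response core TGTTTTG, which reads CAAAACA on the other strand, in G6pc1, Irs2 and Igfbp1. In Pck1 they mark the core TGACG of a cAMP response element, read as CGTCA on the other strand.
G6pc1: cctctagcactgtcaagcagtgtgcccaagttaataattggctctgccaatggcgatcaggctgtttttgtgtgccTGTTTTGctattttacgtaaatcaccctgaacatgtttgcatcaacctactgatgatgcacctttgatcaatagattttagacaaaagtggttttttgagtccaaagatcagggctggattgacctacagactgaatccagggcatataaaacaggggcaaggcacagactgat
Irs2: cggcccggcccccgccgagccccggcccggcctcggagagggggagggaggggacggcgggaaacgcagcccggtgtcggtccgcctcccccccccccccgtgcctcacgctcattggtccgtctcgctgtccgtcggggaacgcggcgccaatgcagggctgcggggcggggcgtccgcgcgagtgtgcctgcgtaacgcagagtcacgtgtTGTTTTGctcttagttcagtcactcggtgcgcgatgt
Igfbp1: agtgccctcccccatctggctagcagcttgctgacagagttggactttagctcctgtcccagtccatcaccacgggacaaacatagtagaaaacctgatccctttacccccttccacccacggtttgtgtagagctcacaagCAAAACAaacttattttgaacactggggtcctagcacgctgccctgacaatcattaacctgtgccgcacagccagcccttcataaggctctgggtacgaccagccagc
Pck1: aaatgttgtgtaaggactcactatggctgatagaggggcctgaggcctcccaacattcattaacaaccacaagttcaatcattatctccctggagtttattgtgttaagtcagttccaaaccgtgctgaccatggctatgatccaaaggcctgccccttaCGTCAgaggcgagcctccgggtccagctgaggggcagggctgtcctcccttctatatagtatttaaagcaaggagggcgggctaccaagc
The core TGTTTTG was found at 174 to 168 bases before the start in G6pc1, at 108 to 102 in Igfbp1, at 37 to 31 in Irs2 and at 2 places in Irs1. Promoters of 4 members therefore held it, of 11 member promoters searched on both strands, and 5.56% of all 32851 RefSeq promoters cut to the same length did. Among the 5 members whose mRNA varied most between livers, G6pc1, Irs2 and Igfbp1 held it and Ppargc1a and Tat did not. Among the rest, Irs1 held it and Pck1, Fbp1, Pcx and Foxo1 did not. A link between the core and this variation was not tested. The TGACG core stood at 90 to 86 bases before the start in Pck1 and was also found in Irs1 and Ppargc1a, beside 17.8% of all promoters. The longer form TGACGTCA was in no member promoter (1.55% of all promoters), and neither were the FoxO motif TGTTTAC or TATTTAC (5.76%) and the glucocorticoid motif AGAACA (16.1%). The antioxidant response core TGACNNNGC, which in Irs1 overlaps the TGACG core, was in Fbp1, G6pc1, Irs1 and Irs2 (10.2% of all promoters). A match of letters is a description and does not show that a factor binds there. Only these exact letters within 250 bases were searched, so a missing match does not show that a gene lacks sites for a factor.

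The first question was whether any of these mRNAs differed between genotypes. None did at the thresholds used. After Benjamini-Hochberg adjustment over all genes in limma, 0 of 10 members passed an adjusted p of at most 0.05 with a 1.5-fold difference, where 0.0824% of all genes did (15 genes). The adjusted p was 1.00 for each member, and all 10 differed by less than 1.5-fold. At the study's thresholds, taken here as 1.5-fold with an unadjusted p of at most 0.05, the count was again 0 of 10, where 0.654% of all genes passed. At an unadjusted p of at most 0.05 alone it was also 0 of 10, where 2.32% of all genes passed. Of the 10 members, 0 had groups that did not overlap, beside 1.71% of all genes. The median log2 difference of the members was 0.03, with 6 above and 4 below 0, and that of all genes was 0.00.

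These differences were measured with unequal precision. The 95% interval of the difference stayed within 1.5-fold either way for Pck1, Fbp1, Pcx, Foxo1 and Irs1. For Pck1 and Foxo1 this held for the mean of the probe sets and not for each one. The interval reached a log2 difference of 0.78 for Pck1 1455209_at and -0.77 for Foxo1 1416981_at. For G6pc1, Irs2, Igfbp1, Ppargc1a and Tat the interval of the gene reached beyond 1.5-fold in at least 1 direction, so a difference of that size was not excluded. The same 5 genes had the widest spread from animal to animal. The fold between the lowest and the highest liver was 4.48 for Ppargc1a, 3.95 for Igfbp1, 3.95 for Irs2, 2.99 for G6pc1 and 2.64 for Tat, while the median gene on the array spanned 1.49-fold. Each of these 5 ranges lay above the 95th percentile of all genes. At the other end, Pck1 and Fbp1 spanned 1.22-fold and 1.23-fold (percentiles 7.89 and 9.03). Irs1, Foxo1 and Pcx lay between, at 2.04-fold, 1.66-fold and 1.49-fold.

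**Figure D1:**
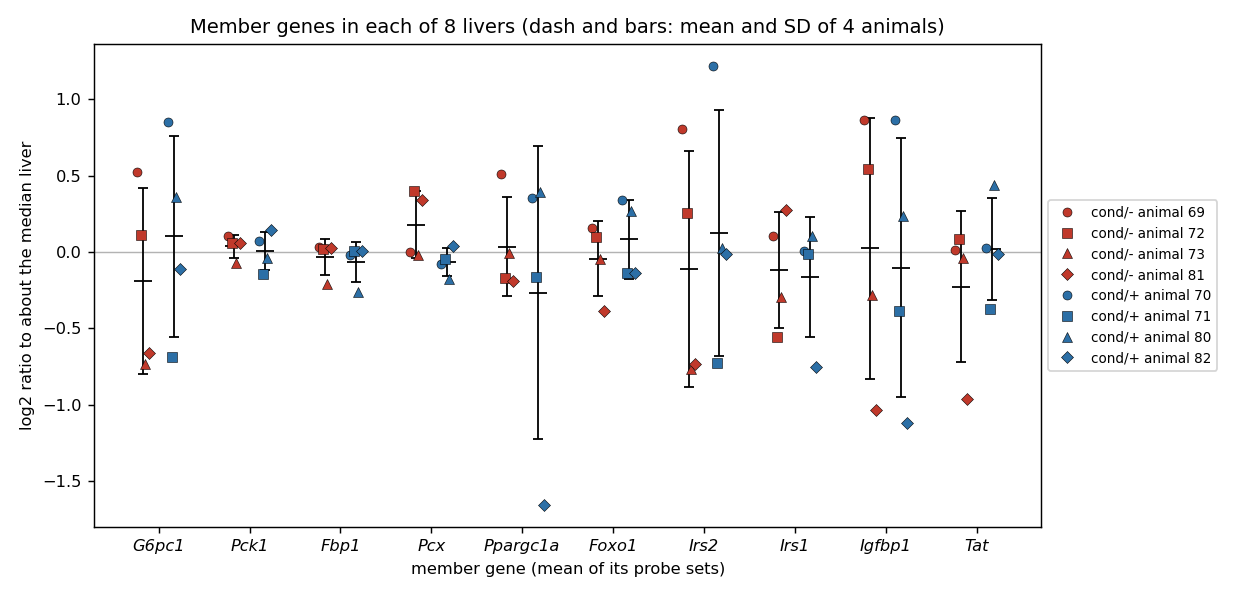
Log2 ratio of each of the 10 genes in each liver, with 4 txnrd1 cond/- albCre1 animals (red) left of 4 txnrd1 cond/+ albCre0 animals (blue); black dashes are means and black bars SDs of the log2 ratios. G6pc1, Irs2, Igfbp1 and Ppargc1a spread over 2.99-fold to 4.48-fold within both colours together, whereas Pck1 and Fbp1 stay within 1.23-fold.

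**Figure D2:**
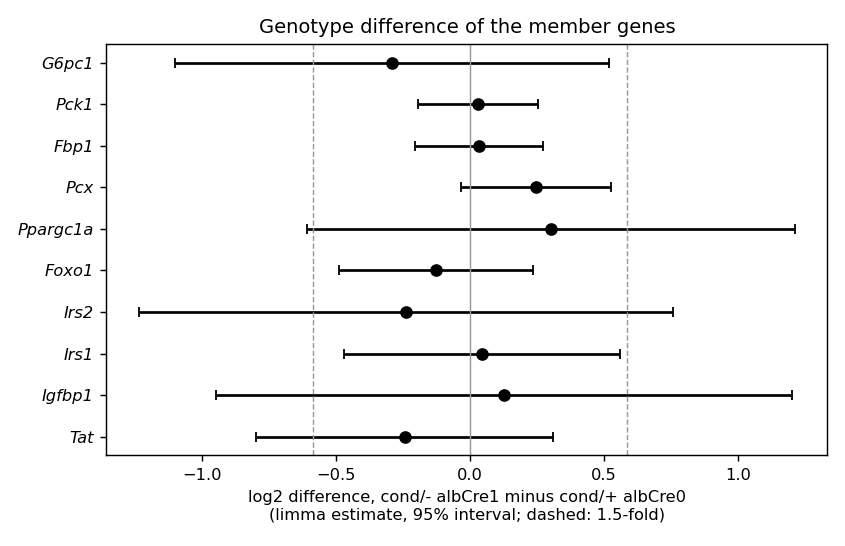
Log2 difference between the genotypes (txnrd1 cond/- albCre1 minus txnrd1 cond/+ albCre0, n = 4 livers each) for each gene, as the limma estimate with its 95% interval; dashed lines mark 1.5-fold. All 10 intervals include 0, and those of G6pc1, Ppargc1a, Irs2, Igfbp1 and Tat cross a dashed line.

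G6pc1 encodes the enzyme that releases free glucose from glucose-6-phosphate, the last step before export to blood. Its single probe set stood at 1.438, 1.082, 0.603 and 0.633 in txnrd1 cond/- albCre1 animals 69, 72, 73 and 81, against 1.805, 0.62, 1.284 and 0.927 in txnrd1 cond/+ albCre0 animals 70, 71, 80 and 82. Each genotype thus held livers that were high (69 and 70) and livers that were low (73, 81 and 71), and the groups overlapped almost completely. The means were 0.939 ± 0.398 in txnrd1 cond/- albCre1 livers and 1.16 ± 0.509 in txnrd1 cond/+ albCre0 livers (SD, n = 4 each). The log2 difference was -0.29 with a 95% interval of -1.10 to 0.52 (SE 0.36; exact permutation of the animals, two-sided, p = 0.54). Genotype took up 6.57% of the sum of squares of this gene.

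Pck1, which makes phosphoenolpyruvate from oxaloacetate, had the narrowest range of the 10. Over its 3 probe sets it averaged 1.07, 1.04, 0.953 and 1.04 in txnrd1 cond/- albCre1 animals 69, 72, 73 and 81, against 1.05, 0.906, 0.972 and 1.10 in txnrd1 cond/+ albCre0 animals 70, 71, 80 and 82. All 8 livers lay within 1.22-fold of each other. The means of 1.03 ± 0.0519 and 1.01 ± 0.0867 in txnrd1 cond/- albCre1 and txnrd1 cond/+ albCre0 livers (SD, n = 4 each) gave a log2 difference of 0.03 (95% interval -0.20 to 0.25; exact permutation p = 0.74). Part of that evenness came from averaging, since the probe sets did not move together. The probe set 1455209_at was higher in txnrd1 cond/- albCre1 livers by 0.38 on the log2 scale (SE 0.18), at 1.228, 0.822, 1.361 and 1.29 against 0.956, 0.767, 1.039 and 0.816 in txnrd1 cond/+ albCre0 livers. It did not pass in limma (unadjusted p = 0.062, adjusted p = 1.00). The other two, 1423439_at and 1439617_s_at, had log2 differences of -0.09 and -0.20, and the second of them reached 1.562 in txnrd1 cond/+ albCre0 animal 82. The sign for the gene therefore depended on how its probe sets were combined, and it also turned (to -0.021) without animal 71, the liver with high acinar markers.

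Fbp1, which hydrolyses fructose-1,6-bisphosphate, was nearly flat. Its ratios were 1.025, 1.012, 0.866 and 1.018 in txnrd1 cond/- albCre1 animals 69, 72, 73 and 81, against 0.987, 1.006, 0.835 and 1.005 in txnrd1 cond/+ albCre0 animals 70, 71, 80 and 82. In each genotype 1 liver (73 and 80) lay apart below the other 3. The log2 difference was 0.03 (95% interval -0.21 to 0.27; exact permutation p = 0.46).

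Pcx, the mitochondrial enzyme that carboxylates pyruvate, had the largest share of its variation between genotypes among the 10 members, 41.5% of the sum of squares. Its probe set 1416383_a_at gave 1, 1.317, 0.985 and 1.268 in txnrd1 cond/- albCre1 animals 69, 72, 73 and 81, against 0.945, 0.968, 0.884 and 1.028 in txnrd1 cond/+ albCre0 animals 70, 71, 80 and 82. Animals 72 and 81 were high, and animals 69 and 73 fell within the range of txnrd1 cond/+ albCre0 livers. The means were 1.14 ± 0.174 and 0.956 ± 0.0595 in txnrd1 cond/- albCre1 and txnrd1 cond/+ albCre0 livers (SD, n = 4 each), a log2 difference of 0.25 that did not pass in limma (95% interval -0.03 to 0.53, unadjusted p = 0.078, adjusted p = 1.00; exact permutation p = 0.11). Pyruvate carboxylase is also a built-in control of the array, read by 4 more probe sets spread along the same mRNA. With these averaged in, an alternative added after the values had been seen, the log2 difference was 0.14 (unadjusted p = 0.24, adjusted p = 1.00). The 3′ control gave 1.072, 1.2, 1.026 and 1.264 in txnrd1 cond/- albCre1 livers, against 0.963, 0.957, 0.9 and 0.971 in txnrd1 cond/+ albCre0 livers, so that its groups did not overlap. Its log2 difference of 0.26 (SE 0.11) had an unadjusted p = 0.041 and an adjusted p = 1.00 in limma, and an exact permutation p = 0.0286, the smallest that 4 livers against 4 allow. The controls from the middle and the 5′ end had log2 differences of 0.18, -0.07 and 0.07. Of all 23 member probe sets, 0 were called after adjustment (0.0266% of all probe sets were). The 3′ Pcx control was the 1 at an unadjusted p of at most 0.05 (1.82% of all probe sets) and the 1 whose groups did not overlap (1.46% of all probe sets). The log2 ratio of the 3′ over the 5′ control of Pcx ran from -0.05 to 0.52 in txnrd1 cond/- albCre1 livers and from -0.37 to 0.17 in txnrd1 cond/+ albCre0 livers (exact permutation p = 0.37). For Gapdh and Actb it lay between -0.23 and 0.13 over all 8 livers.

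**Figure D3:**
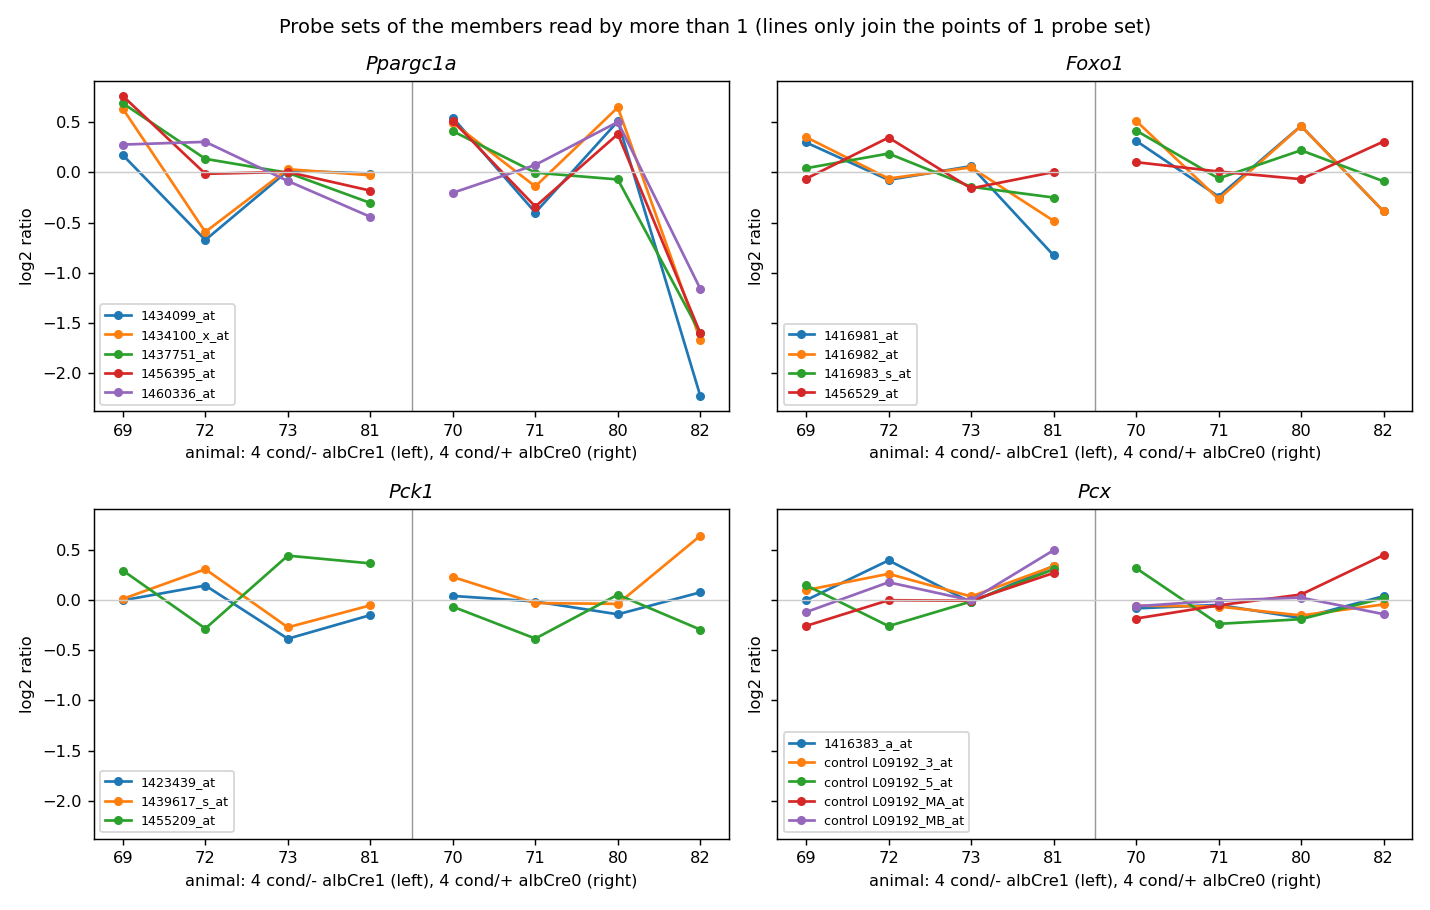
Log2 ratio of each probe set of Ppargc1a, Foxo1, Pck1 and Pcx in each liver, with 4 txnrd1 cond/- albCre1 animals left of 4 txnrd1 cond/+ albCre0 animals; lines only join the points of 1 probe set. All 5 Ppargc1a probe sets are lowest in animal 82, whereas the 3 Pck1 probe sets cross each other.

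Ppargc1a encodes the coactivator PGC-1α, which glucagon and fasting induce in liver. Over its 5 probe sets it averaged 1.42, 0.890, 0.996 and 0.875 in txnrd1 cond/- albCre1 animals 69, 72, 73 and 81, against 1.28, 0.894, 1.32 and 0.318 in txnrd1 cond/+ albCre0 animals 70, 71, 80 and 82. Animal 82 stood apart, and all 5 probe sets were lowest in it, at 0.213 to 0.447. The log2 difference was 0.30 (SE 0.41, 95% interval -0.61 to 1.21; exact permutation p = 0.71), and it turned to -0.16 without animal 82. Because it had the widest range of the members, the genes on the array most like it over the 8 livers were listed by Pearson's r, as a description. They were Hacd3 (r = 0.99), Antxr2 (r = 0.99), D630004K10Rik (r = 0.98), Kyat3 (r = 0.98) and Apc (r = 0.97), and 175 of 18191 genes had r above 0.9. All 5 were lowest in animal 82 as well, with ratios of 0.682, 0.507, 0.318, 0.628 and 0.666 there. In all 5, animals 69, 70 and 80 were the highest, as they were for Ppargc1a. Hacd3, for example, stood at 1.18, 1.10 and 1.15 in these. The correlations were not repeated without animal 82, so how far the likeness rests on that liver was not tested.

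Foxo1, the transcription factor that insulin inactivates, varied over 1.66-fold. It averaged 1.12, 1.07, 0.968 and 0.764 over its 4 probe sets in txnrd1 cond/- albCre1 animals 69, 72, 73 and 81, against 1.26, 0.909, 1.21 and 0.909 in txnrd1 cond/+ albCre0 animals 70, 71, 80 and 82. The lowest and the highest liver belonged to different genotypes, but the remaining 6 interleaved. The log2 difference was -0.13 (95% interval -0.49 to 0.24; exact permutation p = 0.49).

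Irs2, the receptor substrate whose mRNA falls quickly after insulin, followed a pattern close to that of G6pc1. Its ratios were 1.745, 1.191, 0.589 and 0.601 in txnrd1 cond/- albCre1 animals 69, 72, 73 and 81, against 2.325, 0.605, 1.019 and 0.992 in txnrd1 cond/+ albCre0 animals 70, 71, 80 and 82. The highest liver of each genotype (69 and 70) and the 3 lowest livers (73, 81 and 71) were those seen for G6pc1. The means were 1.03 ± 0.552 and 1.24 ± 0.751 in txnrd1 cond/- albCre1 and txnrd1 cond/+ albCre0 livers (SD, n = 4 each), with a log2 difference of -0.24 (95% interval -1.23 to 0.76; exact permutation p = 0.69). It turned to 0.13 without animal 70. Irs1, the other receptor substrate of liver, did not rank the livers that way (r = 0.07 with G6pc1 over the 8 livers). It stood at 1.073, 0.681, 0.814 and 1.211 in txnrd1 cond/- albCre1 animals 69, 72, 73 and 81, against 1.004, 0.991, 1.075 and 0.594 in txnrd1 cond/+ albCre0 animals 70, 71, 80 and 82, with a log2 difference of 0.05 (95% interval -0.47 to 0.56; exact permutation p = 0.91).

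Igfbp1 encodes a secreted binding protein for insulin-like growth factors, and insulin lowers its transcription in liver. Its ratios were 1.819, 1.46, 0.823 and 0.489 in txnrd1 cond/- albCre1 animals 69, 72, 73 and 81, against 1.818, 0.765, 1.175 and 0.46 in txnrd1 cond/+ albCre0 animals 70, 71, 80 and 82. The genotypes ran over the same span, each with 1 liver near 1.8 and 1 below 0.5. Genotype took up 0.736% of the sum of squares. The means were 1.15 ± 0.602 and 1.05 ± 0.587 in txnrd1 cond/- albCre1 and txnrd1 cond/+ albCre0 livers (SD, n = 4 each), with a log2 difference of 0.13 (SE 0.48, 95% interval -0.95 to 1.20; exact permutation p = 0.80). It turned to -0.21 without animal 82, -0.15 without animal 69 and -0.05 without animal 72. Tat, the tyrosine aminotransferase that glucocorticoids induce, was even in 3 of the txnrd1 cond/- albCre1 livers and low in the other. It stood at 1.008, 1.062, 0.973 and 0.513 in animals 69, 72, 73 and 81, against 1.016, 0.771, 1.354 and 0.991 in txnrd1 cond/+ albCre0 animals 70, 71, 80 and 82. The log2 difference of -0.24 (95% interval -0.80 to 0.31; exact permutation p = 0.51) came to 0.00 without animal 81.

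Whether the members varied together from liver to liver was examined over their 45 pairs, on log2 ratios, with exact permutation p-values adjusted over the 45. G6pc1 and Irs2 were the 1 pair past the adjusted threshold (Pearson's r = 0.97, exact p = 3.47e-04, adjusted p = 0.0156; Spearman's rho = 0.95, exact p = 0.00114, adjusted p = 0.0513). The relation was the same after each genotype was centred on its own mean (r = 0.97), and r was 0.94 without animals 73 and 70, the farthest from the median of G6pc1. Leaving out each animal in turn gave r between 0.95 and 1.00, the highest without animal 80, and 0.96 without animal 71. With the animals centred within the 2 ranges of animal numbers (69 to 73 and 80 to 82), r was 0.98.

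Igfbp1 and Foxo1 came next (r = 0.88, exact p = 0.00556, adjusted p = 0.0795; rho = 0.81). This pair was past the threshold only once the genotypes were centred (r = 0.94, adjusted p = 0.0162). That p-value came from shuffling centred values across both genotypes, so it is approximate and not exact. Without the 2 livers farthest from the median of Igfbp1, r of the pair was 0.81. Positive correlations that did not pass after adjustment were those of Foxo1 with G6pc1 (r = 0.86), Tat (r = 0.84) and Irs2 (r = 0.79), and of Igfbp1 with G6pc1 (r = 0.77), Irs2 (r = 0.77) and Ppargc1a (r = 0.75). Some of these moved with the livers included. Without animal 81, r of Tat and Foxo1 was 0.66. For Igfbp1 and Irs2, r was 0.48 without the 2 livers farthest from the median of Irs2. It was 0.97 without the 2 farthest from the median of Igfbp1. In all, 9 pairs had an unadjusted p of at most 0.05. The pair of Ppargc1a and Irs1 (r = 0.73) rested on animal 82, since r was 0.35 without it and 0.70 without animal 69 (0.26 without both, the farthest from the median of Ppargc1a). Pck1 had r = 0.06 with Igfbp1, 0.51 with G6pc1 and 0.59 with Irs2 (exact p = 0.88, 0.20 and 0.13). The first of these depended on which livers were included. Leaving out 1 animal at a time gave r between -0.11 and 0.48. Without animals 81 and 82, the farthest from the median of Igfbp1, r of Pck1 and Igfbp1 was 0.96. Without animals 73 and 71, the farthest from the median of Pck1, it was -0.25.

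**Figure D4:**
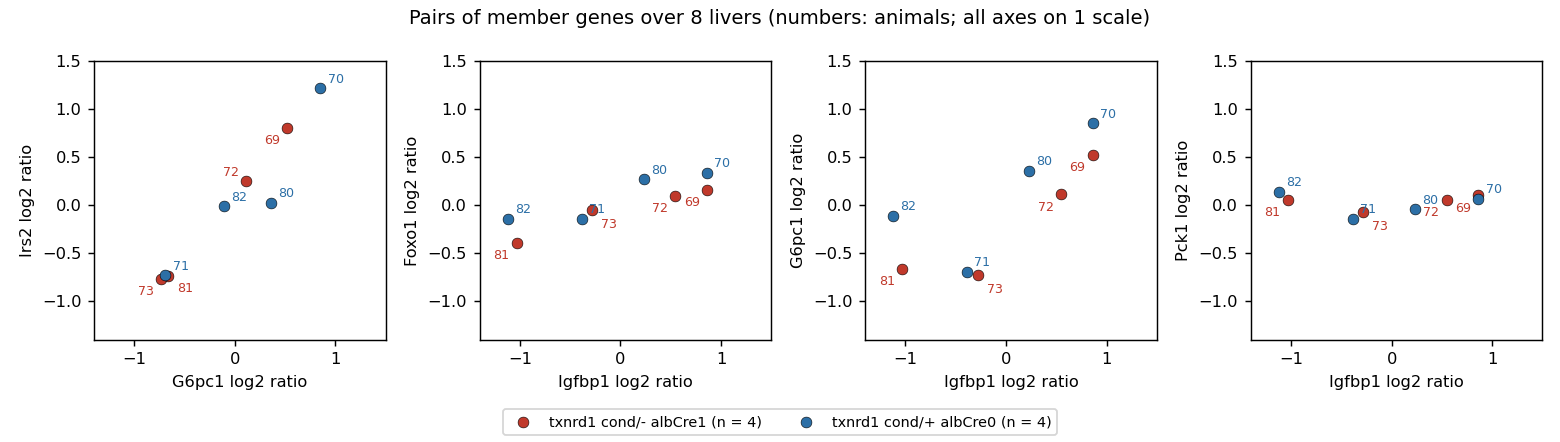
Log2 ratios of 4 pairs of genes over the 8 livers, with txnrd1 cond/- albCre1 (red) and txnrd1 cond/+ albCre0 (blue) livers marked by animal number. G6pc1 and Irs2 rise together (r = 0.97) with both genotypes along 1 line. Pck1 spans little over the range of Igfbp1 (r = 0.06, but 0.96 without animals 81 and 82).

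G6pc1 and Igfbp1 were then set against the genes of the fasting list, the insulin-induced list and the neutrophil list. These 52 relations were chosen after the values had been seen. Adjustment over the 52 does not cover that choice, so the adjusted p-values are descriptions. Igfbp1 varied with Per1, a clock gene that glucocorticoids induce (r = 0.96, exact p = 3.97e-04, adjusted p = 0.0103; rho = 0.90; r = 0.93 without the 2 farthest livers and 0.99 with genotypes centred). It varied as closely with S100a8 (r = 0.95, adjusted p = 0.0103) and S100a9 (r = 0.95, adjusted p = 0.0112), which encode calcium-binding proteins of neutrophils. The other neutrophil markers did not pass with Igfbp1, with r = 0.64 for Camp, 0.57 for Elane and 0.25 for Ltf (adjusted p = 0.29, 0.35 and 0.73). By Spearman's rho 0 of the 52 passed after adjustment. All 5 neutrophil markers were measured, and their mean log2 ratio, in which S100a8 and S100a9 had the widest spread, was 0.51, 0.28, -0.12 and -0.70 in txnrd1 cond/- albCre1 animals 69, 72, 73 and 81, against 0.96, -0.15, 0.23 and -0.80 in txnrd1 cond/+ albCre0 animals 70, 71, 80 and 82. The part of neutrophils in these relations was not tested. For G6pc1 the closest relation was with Angptl4, a fasting-induced inhibitor of lipoprotein lipase (r = 0.90, adjusted p = 0.0577). Angptl4 had r = 0.57 with Igfbp1. Next for G6pc1 was the neutrophil marker Elane (r = 0.88, adjusted p = 0.089). The other neutrophil markers had r = 0.75 (Camp), 0.74 (S100a9), 0.63 (S100a8) and 0.43 (Ltf) with G6pc1, and none passed after adjustment.

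The genes around the members were read from 8 lists of 93 further genes. Of these, 0 were called higher and 1 lower after adjustment over all genes (14 and 1 of all genes were). At the study's thresholds, 2 were higher and 3 lower, 5.38% of the lists beside 0.654% of all genes. The lists were chosen with earlier results in view, so these shares are descriptions.

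The enzymes that gluconeogenesis shares with glycolysis or feeds from (14 of 20 measured) had a median log2 difference of -0.05, with 0 called. The widest differences were those of Ldha, a lactate dehydrogenase subunit (-0.40, SE 0.12, unadjusted p = 0.0082 and adjusted p = 1.00 in limma), and Fbp2, the muscle-type fructose bisphosphatase (-0.24). The Ldha ratios of 0.767 to 0.962 in txnrd1 cond/- albCre1 livers did not overlap the 1.045 to 1.326 of txnrd1 cond/+ albCre0 livers. Enzymes and regulators of the glycolytic direction (3 of 5 measured) had a median of 0.01, with Pfkl at -0.11 and Gckr at 0.03.

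Insulin receptor signalling (16 of 18 measured) had a median of -0.01 and 0 genes called. Trib3, a pseudokinase reported to bind Akt, passed the study's thresholds with a log2 difference of 0.95 (1.93-fold, SE 0.38, unadjusted p = 0.034 and adjusted p = 1.00 in limma). Its ratios were 1.309, 1.204, 0.901 and 3.586 in txnrd1 cond/- albCre1 animals 69, 72, 73 and 81, against 0.91, 0.694, 0.566 and 1.034 in txnrd1 cond/+ albCre0 animals 70, 71, 80 and 82. Animal 81 carried much of this difference, and the groups overlapped. Pik3r1, a regulatory subunit of phosphoinositide 3-kinase, was next in size at -0.28 (SE 0.27). Transcriptional regulators of gluconeogenesis (20 of 22 measured) had a median of 0.01, with 0 called. The deacetylase Sirt1 (0.31, SE 0.27) and Foxo3, a relative of Foxo1 (0.30, SE 0.16), differed most and did not pass at an unadjusted p of 0.05.

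Genes of the fasting and glucocorticoid response (12 of 13 measured) had a median of -0.12, with 0 called. Tdo2, the tryptophan dioxygenase that glucocorticoids induce, stood at 1.032 to 1.321 in txnrd1 cond/- albCre1 livers, against 0.679 to 0.961 in txnrd1 cond/+ albCre0 livers. Its groups did not overlap, and its log2 difference of 0.58 lay just under 1.5-fold (unadjusted p = 0.0021 and adjusted p = 0.71 in limma). Sgk1, a kinase induced by the same hormones, differed by -0.46 with groups that overlapped (SE 0.46). In the list of amino acid catabolism (9 of 11 measured, median -0.07, 0 called), Tdo2 and the ornithine aminotransferase Oat (0.35, unadjusted p = 0.013) were the 2 widest. In the insulin-like growth factor system (11 of 11 measured, median -0.07, 0 called), the binding protein Igfbp2 stood at 0.791 to 0.947 in txnrd1 cond/- albCre1 livers, against 1.044 to 1.569 in txnrd1 cond/+ albCre0 livers (log2 difference -0.50, unadjusted p = 0.0058 and adjusted p = 1.00 in limma). Igfals, the subunit that holds the circulating complex together, differed by -0.28.

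Genes that insulin induces in the fed liver (9 of 10 measured) formed the list with the lowest median, -0.33, and 8 of its 9 genes were below 0. Scd1, a fatty acid desaturase, was the 1 gene called lower after adjustment (log2 difference -1.27, adjusted p = 0.041 in limma), and the call was lost in 7 of the 8 fits that left out 1 animal, with quantile scaling or cyclic loess, with each gene tested alone and with the animal number range as a covariate. Srebf1, a transcription factor that insulin induces, had ratios of 0.913, 0.784, 0.834 and 0.78 in txnrd1 cond/- albCre1 animals 69, 72, 73 and 81, against 1.229, 1.078, 1.572 and 1.314 in txnrd1 cond/+ albCre0 animals 70, 71, 80 and 82. Its log2 difference of -0.64 (SE 0.13) passed the study's thresholds and not the adjustment (adjusted p = 0.35). Fasn, fatty acid synthase, was likewise past the study's thresholds alone (-0.69, adjusted p = 1.00), with groups that overlapped. Malic enzyme, Me1, ran the other way, at 1.16, 1.075, 1.096 and 1.469 in txnrd1 cond/- albCre1 livers, against 0.885, 0.881, 0.435 and 0.881 in txnrd1 cond/+ albCre0 livers (0.69, unadjusted p = 0.015 and adjusted p = 1.00).

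**Figure D5:**
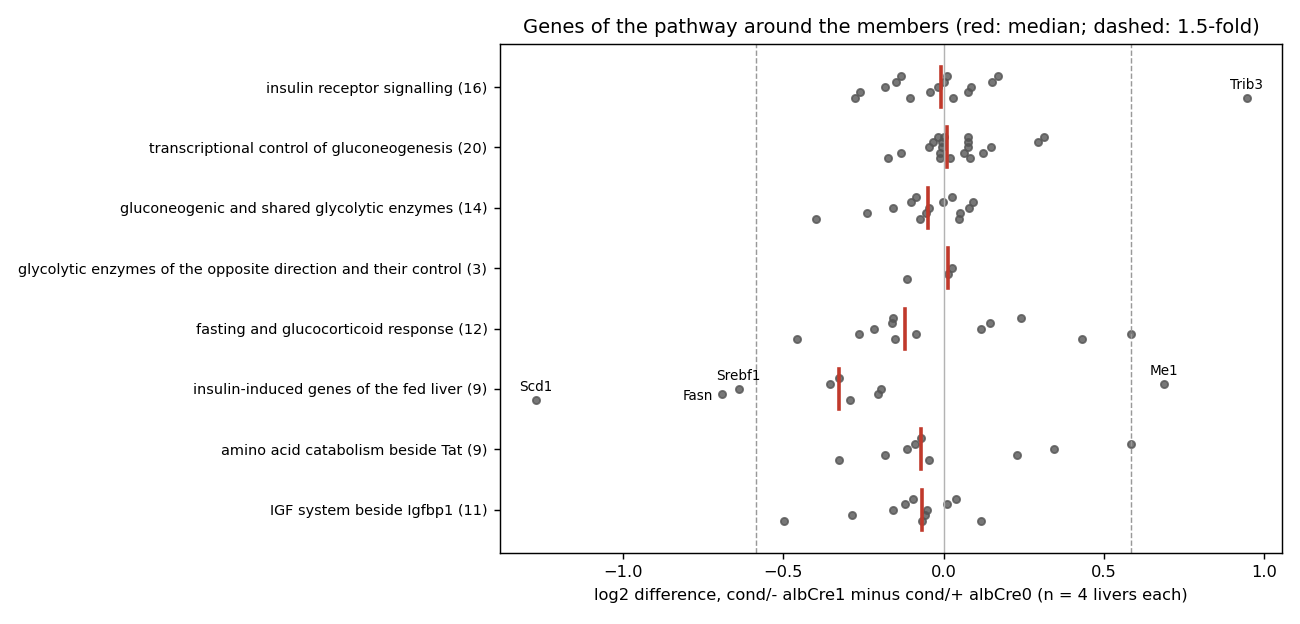
Log2 difference between the genotypes (txnrd1 cond/- albCre1 minus txnrd1 cond/+ albCre0) of each measured gene in 8 lists; red bars are list medians, dashed lines mark 1.5-fold and numbers in brackets are genes measured. Most genes lie within the dashed lines, and Trib3, Me1, Srebf1, Fasn and Scd1 lie outside them.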

How the data were processed

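Liver RNA of 8 mice was measured on Affymetrix whole-genome mouse arrays, 1 per animal. The authors deposited linear ratios. Array medians are close to 1, and 98.5% of probe sets have a median within 2% of 1 over the 8 livers, so each probe set is expressed relative to about its median liver. The submitters' processing notes name RMA and the methods name GeneSpring. The minimum signal of the study cannot be applied to ratios. Controls of the array were dropped (60 of the 45101 probe sets), except 4 that read Pcx, which were kept as probe sets only. A gene is the mean log2 ratio of its probe sets with 1 symbol (34945 probe sets, 18193 genes), named from the platform annotation and updated through RefSeq. Empty values (5, of which 0 in members) were left empty.

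Genotypes were compared with limma 3.58.1 (lmFit and eBayes, two-sided) in R 4.3.3, with Benjamini-Hochberg adjustment over all features, and for each member with an exact permutation of the animals (70 splits, smallest p 0.0286). Means ± SD are of linear ratios. Correlations used all 40320 pairings. The members and gene lists were chosen with earlier results of these data known. Named genes are the members, Txnrd1, genes of each list that pass a threshold (otherwise the 2 of largest difference) and the 5 genes most like Ppargc1a; Per1, S100a8, S100a9, Angptl4 and those most like Igfbp1 were chosen after their values were seen. Listed genes with no probe set of 1 symbol were not analysed here. Alternatives were other scalings, robust, weighted and gene-by-gene fits, the animal number range as a covariate, an SD filter, the median of probe sets and leaving out each animal; the Pcx controls in the gene mean and correlations within number ranges or without each animal were added after seeing the data. The code was tested on simulated data. Each animal is 1 array, so the number of arrays limits the precision. Labels give no litter or batch. Python 3.11.15 and matplotlib 3.10.9 made the figures.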

Additional observations from a re-analysis of the deposited data

Results flagged for a closer look

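Each gene was examined for a liver far from the other 3 of its genotype, in 20 groups of genes and 46 of probe sets, where chance alone marks about 1 group in 20. Fbp1 was marked in each genotype: txnrd1 cond/- albCre1 animal 73 stood at a ratio of 0.866 beside 1.012 to 1.025 in the others, and txnrd1 cond/+ albCre0 animal 80 at 0.835 beside 0.987 to 1.006. Tat stood at 0.513 in txnrd1 cond/- albCre1 animal 81, where the next liver was at 0.973. Fbp1 and Tat are read by 1 probe set each, so the same livers are marked at that level. The Ppargc1a probe set 1456395_at stood at 1.697 in txnrd1 cond/- albCre1 animal 69, where the next liver was at 1.004; the mean over its 5 probe sets was not marked.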

How the results depend on the processing

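No paired analysis was possible because the genotypes share no animal numbers. Of 169 alternative values of the member differences that carry an adjusted p, 0 passed the threshold (lowest adjusted p 0.990, lowest unadjusted p 0.036). Of the 139 whose estimate was not identical to the reported one, 123 kept its sign and 16 reversed it; the cause was not tested. Reversed log2 differences were -0.054 for Pck1 with the median of its probe sets, -0.12 for Igfbp1 with the animal number range as a covariate, and -0.0071, -0.029 and -0.0053 for Irs1 with quantile scaling, cyclic loess and a robust fit. Leaving out each animal gave -0.56 to -0.04 for G6pc1, -0.021 to 0.074 for Pck1 (reversed without 71), -0.031 to 0.092 for Fbp1 (reversed without 80), 0.17 to 0.31 for Pcx, -0.16 to 0.52 for Ppargc1a (reversed without 82), -0.38 to 0.0016 for Tat (reversed without 81), -0.21 to 0.48 for Igfbp1 (-0.15 without 69, -0.05 without 72 and -0.21 without 82), -0.15 to 0.19 for Irs1 (-0.03 without 69, -0.09 without 81 and -0.15 without 82), -0.54 to 0.13 for Irs2 (reversed without 70) and -0.20 to -0.01 for Foxo1. Member genes with an SD under the median SD had no value under the SD filter.

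The count of insulin-induced genes called was 1. It was 0 with quantile scaling, cyclic loess, each gene alone and the number range, 2 with a robust fit, 4 unadjusted and 0 to 1 without each animal. Insulin receptor signalling had 1 gene at the unadjusted threshold. All genes called higher were 14, against 5 with cyclic loess, 28 robust, 1 with each gene alone, 8 with the number range, 39 after the SD filter, 104 unadjusted and 4 to 12 without each animal. All genes called lower were 1, against 0 with quantile scaling, cyclic loess, each gene alone and the number range, 3 robust, 2 after the SD filter, 15 unadjusted and 0 to 1 without each animal. Probe sets called were 12, against 0 with cyclic loess and each alone, 27 robust, 19 with array weights, 59 after the SD filter, 253 unadjusted and 3 to 8 without each animal. Correlated pairs past adjustment were 1, and 2 with genotypes centred, where the p-values are approximate. Arrays and ratios without signal give no measure of background for any gene.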

Other observations

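The genes most like Igfbp1 over the 8 livers, by Pearson's r and as a description chosen after the values had been seen, were Pim3 (r = 0.97), Tdp2 (r = 0.96), Tcim (r = 0.96), Per1 (r = 0.96) and S100a9 (r = 0.95), of 27 genes with r above 0.9. Pim3 encodes a serine/threonine kinase. Its ratios were 1.22, 1.42, 0.776 and 0.595 in txnrd1 cond/- albCre1 animals 69, 72, 73 and 81, against 1.30, 0.793, 1.14 and 0.536 in txnrd1 cond/+ albCre0 animals 70, 71, 80 and 82. Tcim stood at 1.86, 1.09, 0.893 and 0.636 in the txnrd1 cond/- albCre1 animals, against 1.94, 0.803, 1.37 and 0.550 in the txnrd1 cond/+ albCre0 animals. For both, animals 81 and 82 were lowest, and 1 of animals 69, 70 and 72 was highest. S100a9 spanned 9.57-fold over the 8 livers, with 3.807 in txnrd1 cond/+ albCre0 animal 70 and 0.398 in txnrd1 cond/+ albCre0 animal 82.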
